A study of Saccharomyces cerevisiae with 4 samples.

Results

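The 38 genes described here encode molecular chaperones of budding yeast (Saccharomyces cerevisiae) in the cytosol, the mitochondria and the endoplasmic reticulum (ER). They include HSF1, the gene of the heat shock transcription factor. They were chosen by gene symbol from a list of Hsp90, Hsp70, Hsp60, Hsp104 and small heat shock proteins, their co-chaperones and 2 aggregate-sorting factors. All 38 were found among 5449 named genes on the arrays. No rule on measured values picked them, but earlier results of these data were known when they were chosen. RNA came from 3 strains labelled as of the BY4742 background, a haploid laboratory strain of mating type alpha with auxotrophic mutations in HIS3, LEU2, LYS2 and URA3 that all strains here share. Strains deleted for ada1 or for gcn5, made by recombination with a KanMX cassette, were measured on 1 array each, and the wild-type strain on 2 arrays. All cells grew at 30 degrees Celsius in YPD, a rich glucose medium, and were harvested in exponential phase, and the labels name no heat shock or other stress treatment. ADA1, named HFI1 in current annotation, encodes a structural subunit of SAGA. SAGA is a transcription coactivator that acetylates and deubiquitinates histones and helps bring TATA-binding protein to promoters, and GCN5 encodes its acetyltransferase. The labels do not say whether the wild-type arrays hold different cultures, and the p-values reflect only how far those arrays lie apart, possibly a technical spread.

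Chaperones bind unfolded or partly folded proteins and use ATP-driven cycles to help them fold, cross membranes or leave aggregates. Hsp70 proteins work with J-domain proteins, which deliver clients and stimulate ATP hydrolysis, and with nucleotide exchange factors, which reset the cycle, while Hsp90 acts later on selected clients with a set of co-chaperones. In yeast the essential factor Hsf1 drives many of these genes at normal temperature and raises their transcription when unfolded proteins accumulate. Several chaperones come as paralog pairs in which 1 gene is expressed constantly and the other is induced by stress, such as HSC82 and HSP82, or SSE1 and SSE2.

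Values are MAS5 signals, a summary of the probes of 1 probe set on a linear intensity scale. The signal of a gene is compared between arrays only, since probe sets differ in brightness for the same amount of RNA. Each deleted gene gave its lowest signal of the 4 arrays on that of its own strain. These were 6.70 for HFI1 in the ada1 deletion and 3.28 for GCN5 in the gcn5 deletion, against 246 to 385 for these genes in wild type. Signals of LEU2, LYS2 and URA3 were at most 38.9 on every array. STE3, the pheromone receptor gene of alpha cells, gave 3645 and 3971 in wild type but 423 in the ada1 deletion and 517 in the gcn5 deletion. Because this bears on whether the strains are alike apart from the deletions, other genes specific to a mating type were looked up after that value was seen. The alpha-cell genes MF(ALPHA)2 and SAG1 were also lower in both deletions, at 134 and 204 against 10769.5 and 8181 in wild type for MF(ALPHA)2, while MF(ALPHA)1 gave 2602 and 4967 against 11518 and 8012. The 6 genes specific to the opposite mating type, STE2, STE6, BAR1, MFA1, MFA2 and AGA2, were under the background level of 166 on all 4 arrays, with a highest signal of 111. Whether the strains differ in anything else was not tested. The arrays of the ada1 deletion and of wild type replicate 1 reached highest signals of 21989 and 23746, and those of the gcn5 deletion and of wild type replicate 2 only 12244 and 11804. The labels name no batch. Differences were tested with limma across 4541 genes and unnamed probe sets whose mean signal reached a background level of 166, and a gene is called changed at a Benjamini-Hochberg adjusted p under 0.05 over all of them. With 1 array for each deletion, each lone array is assumed to vary as the wild-type pair does. With the values as deposited, the SE of a gene reflects the wild-type pair over tested genes of like signal, not that gene's own spread. Over all tested genes the test called 124 higher and 259 lower in the ada1 deletion, 96 higher and 115 lower in the gcn5 deletion, and 91 higher and 193 lower in the ada1 than in the gcn5 deletion. After quantile normalization, which gives every array the same distribution of signals, those counts were 277 and 379, 112 and 214, and 254 and 256. With every array brought to the same median signal they were 296 and 396, 162 and 314, and 300 and 261.

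**Figure D1:**
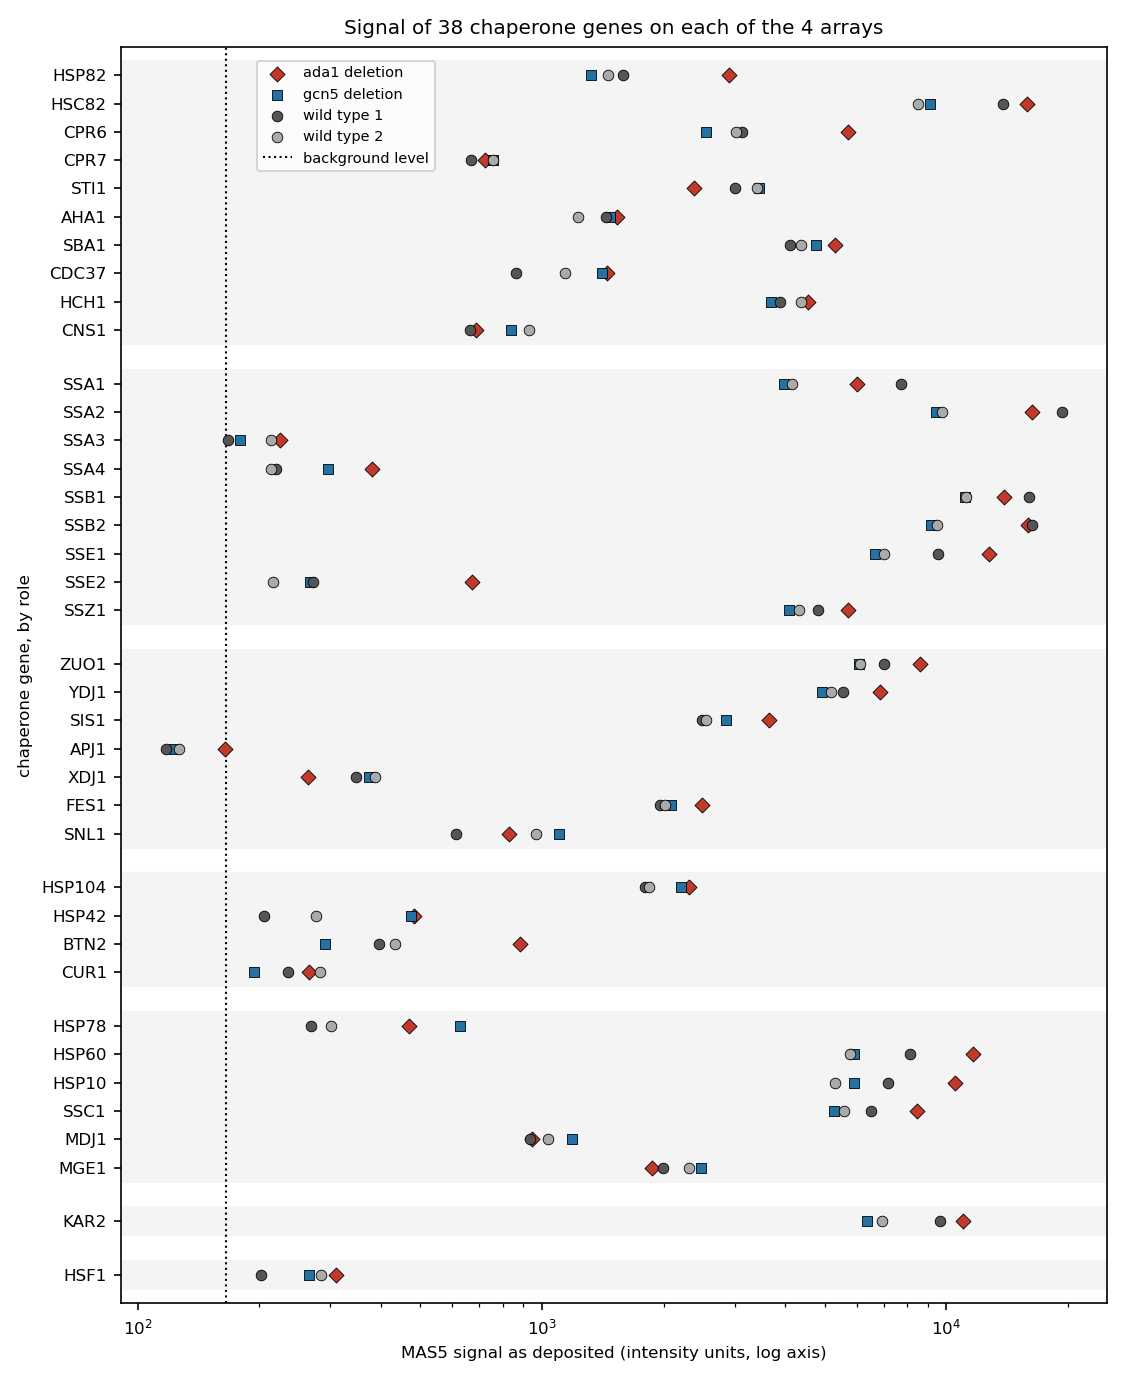
MAS5 signal as deposited (log axis) of each of the 38 chaperone genes on the 4 arrays, with genes in rows grouped by role and 1 symbol per array. The dotted line is the background level of 166, and only APJ1 lies under it on all arrays. Genes at the bright end, such as SSA2 and SSB2, have ada1 deletion and wild type 1 on the right and gcn5 deletion and wild type 2 on the left.

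Set against wild type, the chaperone genes of the ada1 deletion strain were on the higher side, and 3 of them rose by the test: SSE2, HSP82 and CPR6. Those 3 were among 37 chaperone genes tested, while 2.73% of all tested genes were called higher. None was called lower by limma, against 5.70% of all tested genes. At an unadjusted p under 0.05 there were 8 chaperone genes, all higher. How many of all tested genes passed that threshold was not counted. Of the 38 genes, 26 had a signal above both wild-type arrays in the ada1 deletion and 3 below both, and over all tested genes these shares were 41.5% and 29.9%. The median log2 difference was 0.36 over the 38 genes and 0.08 over all tested genes. Against wild type replicate 1 alone the median of the 38 was 0.35, and against replicate 2 alone 0.41. After quantile normalization 10 chaperone genes were called higher and 0 lower (6.10% and 8.35% of all tested genes), and with a common median 6 and 0 (6.52% and 8.72%). The median after quantile normalization was 0.30, against 0.05 over all tested genes, and 28 chaperone genes lay above both wild-type arrays and 7 below both, where the shares over all tested genes were 46.2% and 35.4%.

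In the gcn5 deletion strain limma called 2.11% of all tested genes higher and 2.53% lower. None of the 37 tested genes of the chosen 38 was called in either direction. At an unadjusted p under 0.05 there were 4, all higher: CDC37, SNL1, HSP42 and HSP78. The share of all tested genes under that threshold was not counted. Of the 38 genes, 14 had a signal above both wild-type arrays and 15 below both, against 53.1% and 24.9% of all tested genes. The median log2 difference was -0.02, with 0.15 over all tested genes. After quantile normalization HSP78 was called higher and BTN2 lower (2.47% and 4.71% of all tested genes), and with a common median HSP42 and HSP78 were called higher and BTN2 lower (3.57% and 6.91%). The common median put the median of the 37 tested chaperone genes at -0.28 and that of all tested genes at -0.06, so that a small positive difference in the gcn5 deletion, such as those of SIS1, AHA1 and SBA1, became negative. After quantile normalization the median was 0.03 for the chaperone genes as for all tested genes, with 16 genes above both wild-type arrays and 14 below (43.1% and 37.2% of all tested genes).

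**Figure D2:**
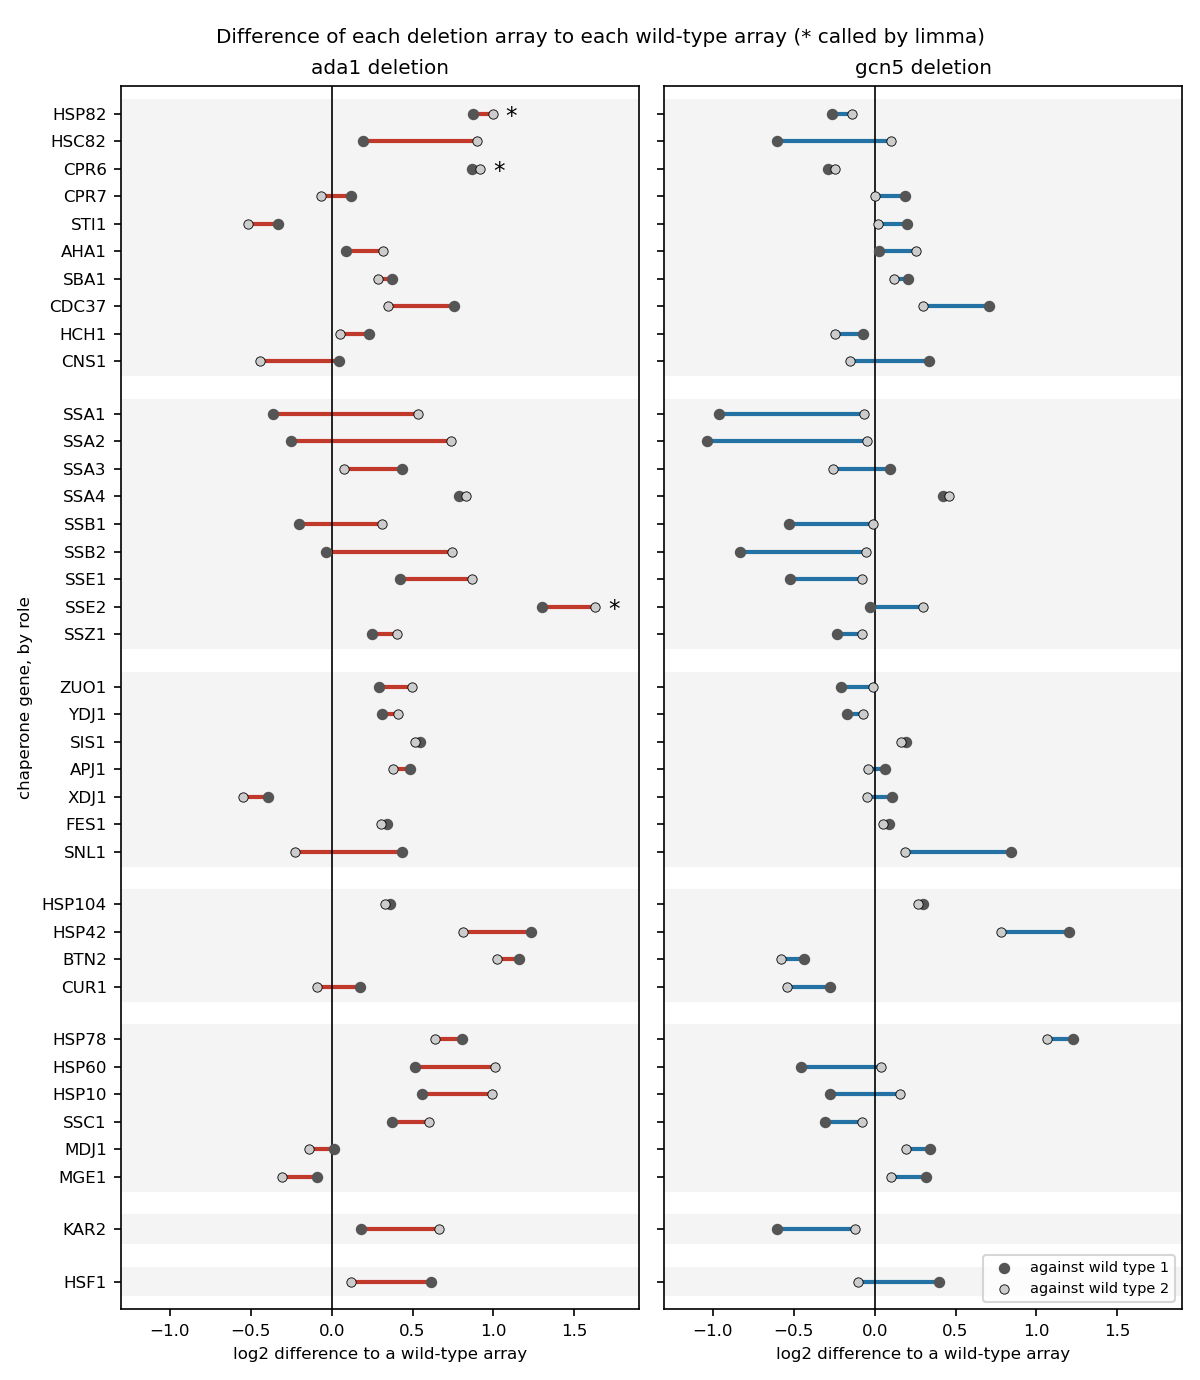
Log2 difference of the ada1 deletion array (left) and of the gcn5 deletion array (right) to each wild-type array, for the 38 chaperone genes grouped by role. Each bar joins the values against wild type 1 (dark) and wild type 2 (light), and a star marks the genes called by limma, which are HSP82, CPR6 and SSE2 in the ada1 deletion and none in the gcn5 deletion.

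Among the 10 genes of Hsp90 and its co-chaperones, HSP82 and CPR6 rose in the ada1 deletion. HSP82 encodes the stress-inducible Hsp90 isoform. Its signal was 2908 in the ada1 deletion, 1326 in the gcn5 deletion, and 1588 and 1459 in wild type. The ada1 deletion array stood above the other 3, 1.83-fold and 1.99-fold over the wild-type arrays, and the gcn5 deletion array lay below both wild-type arrays. The log2 difference to wild type was 0.93 ± 0.22 SE in the ada1 deletion (adjusted p = 0.000526, limma; 0.00572 after quantile normalization) and -0.20 ± 0.22 in the gcn5 deletion (adjusted p = 0.741). With a single variance prior in place of a trend on the mean the call in the ada1 deletion was lost (adjusted p = 0.120, and 4.06e-05 to 0.120 over the alternatives). CPR6 encodes a cyclophilin that binds Hsp90. It gave 5699.6 in the ada1 deletion, 2549.7 in the gcn5 deletion, and 3118 and 3019 in wild type, the same order of arrays as HSP82, and the ada1 deletion signal was 1.83-fold and 1.89-fold that of the wild-type arrays. Its log2 difference was 0.89 ± 0.29 SE in the ada1 deletion (adjusted p = 0.0259, limma; 0.00322 after quantile normalization) and -0.27 ± 0.29 in the gcn5 deletion (adjusted p = 0.732). The call of CPR6 was lost under 4 of 7 tested alternatives (adjusted p from 0.00219 to 0.156).

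HSC82, the constitutive partner of HSP82, was not called. Its signals were 15846 in the ada1 deletion and 13828 in wild type replicate 1, against 9104 in the gcn5 deletion and 8498 in wild type replicate 2. The ada1 deletion and wild type replicate 1 were thus the brighter pair of arrays, and the log2 difference of the ada1 deletion to wild type was 0.55 ± 0.91 SE. After quantile normalization it was 0.25 ± 0.11 (adjusted p = 0.172, limma), with 0.97 for HSP82 by the same normalization. As deposited, the SE was 0.91 for HSC82 and 0.22 for HSP82. A difference of 0.93, that of HSP82, is about the size of the SE of HSC82, so the test as deposited could not have called it. Whether the paralogs differ from each other in their response was not tested.

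The other 7 co-chaperone genes had log2 differences to wild type of at most 0.55 in size in both strains, without a call. CDC37, whose product brings protein kinases to Hsp90, was the highest of them in the ada1 deletion, with signals of 1452 and 1405 in the ada1 and gcn5 deletions against 861 and 1140 in wild type. Both deletion arrays were above both wild-type arrays, with log2 differences of 0.55 ± 0.22 and 0.50 ± 0.22 SE (adjusted p = 0.127 and 0.231, limma). STI1, which links Hsp70 to Hsp90, was the lowest in the ada1 deletion, at 2377, with 3447 in the gcn5 deletion and wild-type signals of 2998 and 3401. AHA1, an activator of the Hsp90 ATPase, and SBA1, the yeast p23 protein, had both deletion arrays above both wild-type arrays, and CPR7, HCH1 and CNS1 had at least 1 deletion array between or below them.

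In the cytosolic Hsp70 and Hsp110 families the only call was the rise of SSE2 in the ada1 deletion. SSE2 encodes the stress-inducible Hsp110, a nucleotide exchange factor for Hsp70. It gave 669.7 in the ada1 deletion, 267 in the gcn5 deletion, and 272 and 217 in wild type. The ada1 deletion signal was 2.46-fold and 3.09-fold that of the wild-type arrays, and the gcn5 deletion lay between them. The log2 difference was 1.46 ± 0.40 SE in the ada1 deletion (adjusted p = 0.00584, limma; 0.00636 after quantile normalization, and 1.56e-08 to 0.0303 over the alternatives that tested it) and 0.13 ± 0.40 in the gcn5 deletion (adjusted p = 0.916).

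SSE1, the constitutive Hsp110, gave 12784 in the ada1 deletion and 9556 in wild type replicate 1, against 6658 in the gcn5 deletion and 7018 in wild type replicate 2. Its log2 difference in the ada1 deletion was 0.64 ± 0.67 SE, and 0.41 ± 0.12 after quantile normalization (adjusted p = 0.0504, limma). SSA4, a strictly stress-inducible cytosolic Hsp70, had the largest difference of the Hsp70 genes. Its signals were 380.0 in the ada1 deletion and 295 in the gcn5 deletion, against 219.8 and 214 in wild type, so both deletion arrays were above both wild-type arrays. The log2 difference of 0.81 ± 0.39 SE in the ada1 deletion was not called (adjusted p = 0.264, limma), but was called after quantile normalization (0.76 ± 0.22, adjusted p = 0.0497) and with a common median (adjusted p = 0.00755), out of a range of 0.00755 to 0.258. SSA3, the other inducible Hsp70, gave 226 and 179 in the deletions and 167 and 214 in wild type.

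The constitutive Hsp70 genes SSA1 and SSA2 and the ribosome-bound SSB1 and SSB2 differed more between the wild-type arrays than either deletion did from the wild-type mean. SSA2 gave 19347 and 9766 on the wild-type arrays, 16273 in the ada1 deletion and 9447 in the gcn5 deletion. SSB2 gave 16336 and 9505 in wild type, 15927 in the ada1 deletion and 9172 in the gcn5 deletion. SSA1 followed with 7717 and 4149.5 in wild type, 6014 and 3961 in the deletions. On the probe sets used for these 4 genes the ada1 deletion lay between the wild-type arrays and the gcn5 deletion below both, close to replicate 2. SSB1 was read by 2 probe sets, of which the one used can detect several similar transcripts and gave a log2 difference of 0.06 between ada1 deletion and wild type. The other, specific by its name, gave 0.58, with wild-type signals of 22000.3 and 7190.1, and the gcn5 deletion (8104) lay between these. SSB1 and SSB2 are near-identical in sequence, and a probe set of either may detect both.

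This pairing of arrays reached well beyond the Hsp70 genes. The ada1 deletion and wild type replicate 1 were the 2 brightest arrays for 16 of the 38 chaperone genes, and for 12.2% of all tested genes. They included HSC82, SSA1, SSA2, SSB1, SSB2, SSE1, HSP60, HSP10 and KAR2, which encode chaperones of unstressed cells. They also included the called genes HSP82, CPR6 and SSE2, with log2 differences of replicate 1 to replicate 2 of 0.12, 0.05 and 0.33. The uncalled genes YDJ1, SSZ1, ZUO1 and SSC1 were among them too, with such differences of 0.10, 0.15, 0.20 and 0.23. After quantile normalization the count was 9, and the share over all tested genes 20.1%. Over the 38 genes the log2 difference of replicate 1 to replicate 2 ran from -0.66 for SNL1 to 0.99 for SSA2, with a median of -0.03. The part of the difference in signal range in these values was not tested. By signal range, the ada1 deletion is nearest to replicate 1 and the gcn5 deletion to replicate 2.

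**Figure D3:**
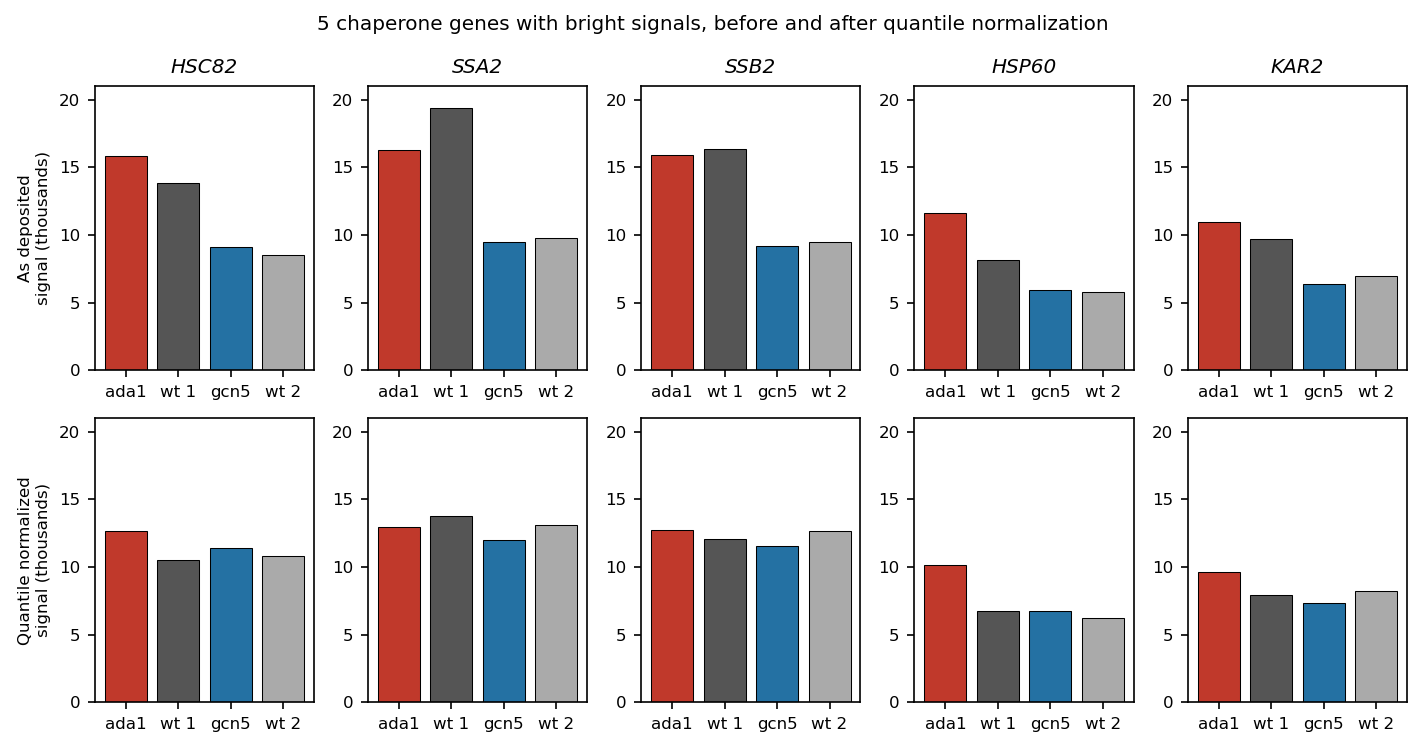
Signals (linear axis from 0) of HSC82, SSA2, SSB2, HSP60 and KAR2 on each array as deposited (upper row) and after quantile normalization of all probe sets (lower row). Genes were picked for this plot after their values were seen. As deposited, ada1 deletion and wild type 1 stand above gcn5 deletion and wild type 2 in all 5, and after normalization the ada1 deletion bar is the highest for HSC82, SSB2, HSP60 and KAR2, by the most for HSP60 and the least for SSB2, but not for SSA2.

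Among the 38 genes, no J-domain or exchange factor gene other than SSE2 was called in either strain. SIS1, an essential J-domain partner of the Ssa proteins, gave 3641 in the ada1 deletion and 2859.6 in the gcn5 deletion, against 2495 and 2549 in wild type. Both deletions were above both wild-type arrays, and the log2 difference in the ada1 deletion was 0.53 ± 0.26 SE (adjusted p = 0.264, limma; 0.57 ± 0.14 and adjusted p = 0.0305 after quantile normalization, from 0.0305 to 0.616 over the alternatives). SNL1, an ER membrane protein with a BAG domain that acts on Hsp70, gave 1099 in the gcn5 deletion and 827 in the ada1 deletion, against 612 and 967 in wild type, and was 0.52 ± 0.26 SE higher in the gcn5 deletion (adjusted p = 0.330). YDJ1, the major cytosolic J-domain protein, gave 6867 in the ada1 deletion against 5544 and 5176 in wild type, with 4923 in the gcn5 deletion. ZUO1, which with SSZ1 forms the ribosome-associated complex that assists Ssb, showed the same order, at 8614 against 7029 and 6111, with 6079.9 in the gcn5 deletion. SSZ1 itself gave 5718 against 4806 and 4319, with 4095 in the gcn5 deletion. FES1, an exchange factor, had both deletions above both wild-type arrays by at most 0.34 on the log2 scale. XDJ1 had its lowest signal in the ada1 deletion, 264 against 347 and 386. APJ1 was under the background level on all arrays and was not tested.

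The sorting factor BTN2 separated the strains most clearly among the chaperones of aggregated proteins. Btn2 binds misfolded proteins and gathers them at deposit sites. BTN2 gave 881 in the ada1 deletion, 291 in the gcn5 deletion, and 395 and 434 in wild type. The ada1 deletion signal was 2.23-fold and 2.03-fold that of the wild-type arrays, and the gcn5 deletion signal was below both. The log2 difference to wild type was 1.09 ± 0.38 SE in the ada1 deletion, just short of a call (adjusted p = 0.0510, limma), and 6 of 7 tested alternatives called it, with adjusted p from 2.87e-05 to 0.160. In the gcn5 deletion it was -0.51 ± 0.38 (adjusted p = 0.573), and it was called lower after quantile normalization (-0.76 ± 0.19, adjusted p = 0.0464) and with a common median (adjusted p = 0.0140), with 0.614 as the highest value over the alternatives. CUR1, a paralog of BTN2, gave 266 in the ada1 deletion and 194 in the gcn5 deletion, against 236 and 283 in wild type.

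HSP42, a small heat shock protein that holds clients in aggregates, was higher than wild type on both deletion arrays. It gave 483 in the ada1 deletion and 474 in the gcn5 deletion, against 206 and 276 in wild type. The log2 differences were 1.02 ± 0.40 and 0.99 ± 0.40 SE, without a call (adjusted p = 0.109 and 0.162, limma). After quantile normalization the adjusted p-values were 0.0102 and 0.0540, and over the alternatives they ran from 0.000230 to 0.151 and from 0.0106 to 0.197. Both comparisons use the same wild-type arrays. HSP104, the disaggregase that pulls proteins out of aggregates with Hsp70, gave 2305 and 2213 in the deletions and 1799 and 1836 in wild type. Its log2 differences of 0.34 ± 0.22 and 0.28 ± 0.22 SE were not called.

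In the mitochondria, HSP78 was the gene with the largest difference in the gcn5 deletion. Hsp78 is the matrix relative of Hsp104. HSP78 gave 629 in the gcn5 deletion and 468 in the ada1 deletion, against 268 and 301 in wild type. The gcn5 deletion signal was 2.34-fold and 2.09-fold that of the wild-type arrays. The log2 difference was 1.15 ± 0.40 SE in the gcn5 deletion (adjusted p = 0.0756, limma; 0.0242 after quantile normalization, and called under 5 of 7 tested alternatives, from 0.000961 to 0.163) and 0.72 ± 0.40 in the ada1 deletion (adjusted p = 0.368; 0.0416 after quantile normalization, and 0.0167 to 0.380 over the alternatives). It was the only chaperone gene that was 2-fold or more above each wild-type array in the gcn5 deletion, as were 0.903% of all tested genes. In the ada1 deletion SSE2 and BTN2 met that rule, and 0.859% of all tested genes.

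**Figure D4:**
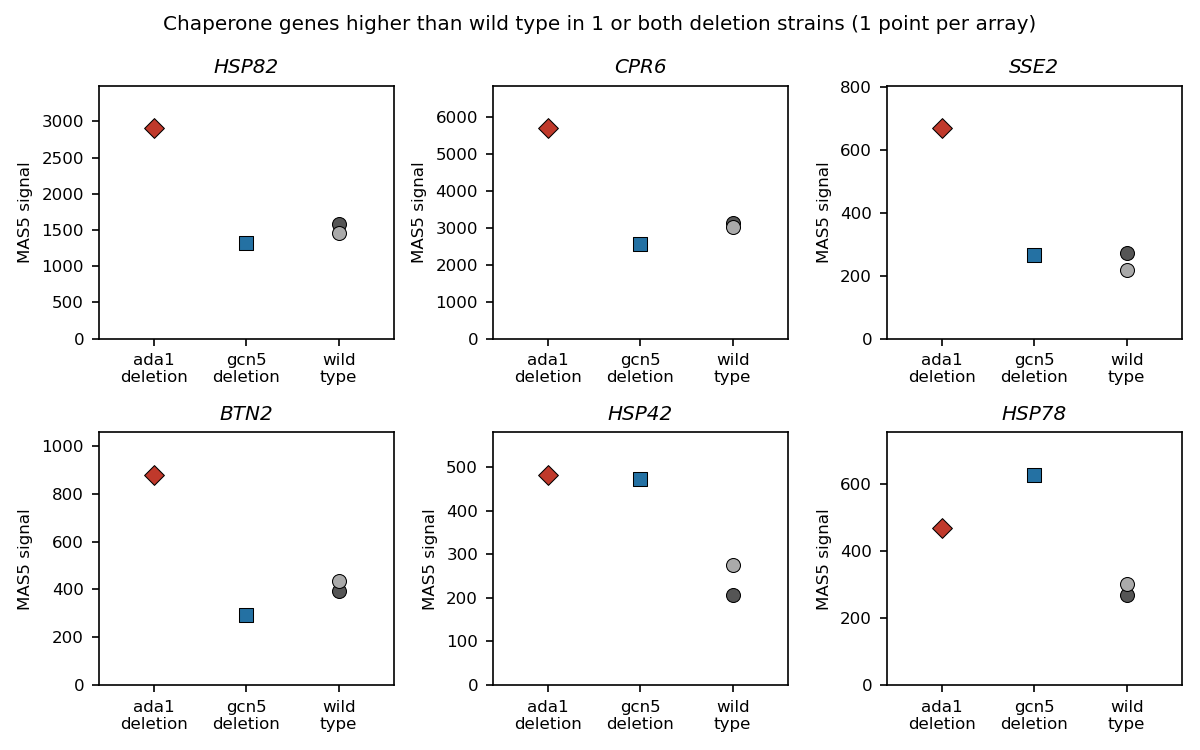
MAS5 signal (linear axis from 0) of 6 chaperone genes, 1 point per array, with the wild-type arrays in 1 column (dark for replicate 1). HSP82, CPR6, SSE2 and BTN2 are highest in the ada1 deletion and near or below wild type in the gcn5 deletion, while HSP42 and HSP78 lie above both wild-type arrays in both deletions.

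HSP60 and HSP10, the chaperonin of the matrix and its lid, shared an order of arrays. HSP60 gave 11619 in the ada1 deletion, 5928 in the gcn5 deletion, and 8141 and 5772 in wild type. HSP10 gave 10523, 5900.1, and 7158 and 5294 in the same order. For both genes the ada1 deletion was above both wild-type arrays and the gcn5 deletion between them. The log2 differences in the ada1 deletion were 0.76 ± 0.57 and 0.77 ± 0.53 SE, without a call (adjusted p = 0.600 and 0.540, limma). After quantile normalization they were 0.64 ± 0.12 and 0.60 ± 0.12 and both were called (adjusted p = 0.00922 and 0.0123), the only alternative that called them, with highest values of 0.753 and 0.715. SSC1, the matrix Hsp70 that also drives protein import, gave 8463 in the ada1 deletion and 5281 in the gcn5 deletion, with wild-type signals of 6525 and 5573. Its J-domain partner MDJ1 and its exchange factor MGE1 were highest in the gcn5 deletion, at 1188 and 2479.6, against wild-type signals of 935 and 1037 for MDJ1 and 1991 and 2313 for MGE1. The ada1 deletion gave 943 for MDJ1 and 1869 for MGE1.

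KAR2, the Hsp70 of the ER lumen, gave 10984 in the ada1 deletion and 6366 in the gcn5 deletion, against 9674 and 6935 in wild type. Its log2 differences of 0.42 ± 0.63 and -0.36 ± 0.63 SE were smaller than their errors (adjusted p = 0.891 and 0.852, limma), though the ada1 deletion array was above and the gcn5 deletion array below both wild-type arrays. HSF1 gave 309 and 266 in the ada1 and gcn5 deletions and 202 and 285 in wild type. Its transcript differed from wild type by 0.37 ± 0.39 and 0.15 ± 0.39 SE (adjusted p = 0.776 and 0.907, limma), and the array measures neither the protein nor its activity.

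Set directly against each other, the deletion strains differed in HSP82, CPR6 and BTN2, all higher in the ada1 deletion, out of 37 chaperone genes tested, where 2.0% of all tested genes were called higher. None was called lower by limma or had an unadjusted p under 0.05 in that direction, while 4.25% of all tested genes were called lower. This comparison sets 1 array against 1, of different signal range. The log2 difference was 1.13 ± 0.25 SE for HSP82 (adjusted p = 0.000270, limma), and CPR6 gave 1.16 ± 0.33 (adjusted p = 0.0110) and BTN2 1.60 ± 0.44 (adjusted p = 0.00720). After quantile normalization 5 chaperone genes were called higher, these 3 with SSE2 and HSP60, and 0 lower (5.59% and 5.64% of all tested genes). With a common median HSP82, CPR6, BTN2 and SSE2 were called higher and 0 lower (6.61% and 5.75%). SSE2 was 2.51-fold higher in the ada1 than in the gcn5 deletion, at an adjusted p of 0.0670, and was called after quantile normalization (adjusted p = 0.0107; 4.52e-07 to 0.108 over the alternatives). HSP42 and HSP78, high in both deletions, differed between them by 0.03 ± 0.47 and -0.43 ± 0.46 SE, which does not show that they are equal. Of the 38 genes, 30 were higher in the ada1 deletion, a count that was not made over all tested genes. The median log2 difference of the 38 was 0.36 against -0.11 over all tested genes, and 0.27 against 0.01 after quantile normalization. For 10 of the 38 the ada1 deletion was above and the gcn5 deletion below both wild-type arrays, as for 7.66% of all tested genes, and for 9 both deletions were above, as for 27.5%.

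Of 59 other genes in 6 lists, on protein folding or on heat shock factor control, 55 were tested. In the ada1 deletion 1 rose and 1 fell, where 2.73% and 5.70% of all tested genes were called. In the gcn5 deletion 2 rose and none fell (limma, 1 with an unadjusted p under 0.05 in that direction), beside 2.11% and 2.53%. After quantile normalization the counts were 4 and 3 in the ada1 deletion (6.10% and 8.35% of all tested genes) and 2 and 2 in the gcn5 deletion (2.47% and 4.71%). SGT2, a carrier of tail-anchored membrane proteins that also binds chaperones, rose in the ada1 deletion, with a signal of 5226, 2475 in the gcn5 deletion and wild-type signals of 2424 and 2978 (log2 difference 0.96 ± 0.27 SE, adjusted p = 0.00739, at most 0.101 over the alternatives). PAM18, the J-domain protein of the import motor of the mitochondrial inner membrane, fell, with 616 against 1045 and 1213, and 921 in the gcn5 deletion (-0.87 ± 0.25 SE, adjusted p = 0.00903, at most 0.172). CAJ1, a J-domain gene, rose in the gcn5 deletion, with 2132 against 1019.6 and 1348, and 1256 in the ada1 deletion (0.86 ± 0.22 SE, adjusted p = 0.00345, at most 0.243). So did HSP26, a small heat shock protein also controlled by the general stress factors, with 979.9 against 325 and 376, and 427 in the ada1 deletion (1.49 ± 0.38 SE, adjusted p = 0.00331, at most 0.0882). HSP31, a stress-induced chaperone and glyoxalase, was lower in the ada1 than in the gcn5 deletion, at 159 and 439, against 338 and 319 in wild type. Its signal in the ada1 deletion was under the background level, so it was at least 2.65-fold lower there than in the gcn5 deletion, the bound being the background level (adjusted p = 0.0291, limma, and 0.0565 with dim signals raised to that level, which ended the call). Against wild type HSP31 was not called in the ada1 deletion (adjusted p = 0.0913, limma). It was called lower there after quantile normalization (adjusted p = 0.00913), with a common median (9.62e-05) and without the filter. CAJ1 was also lower and SGT2 higher in the ada1 than in the gcn5 deletion (log2 difference -0.76 ± 0.25 and 1.08 ± 0.31 SE, adjusted p = 0.0423 and 0.0127, at most 0.448 and 0.135). Each of these calls with the values as deposited was lost under at least 1 alternative.

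By list, with medians over all its genes, the 14 genes of the chaperonin TRiC and of prefoldin, which fold actin and tubulin, had no call as deposited (limma) and a median log2 difference of -0.06 in the ada1 deletion and -0.00263 in the gcn5 deletion. PAC10, a prefoldin subunit, was called lower in the ada1 deletion after quantile normalization (adjusted p = 0.0376) and with a common median (0.00658). The 15 genes of ER folding, among them protein disulfide isomerase and the unfolded protein response genes HAC1 and IRE1, had no call as deposited (limma) and medians of 0.13 and 0.10. After quantile normalization HAC1 and EUG1 were called higher in the ada1 deletion (adjusted p = 0.0387 for each) and ERO1 lower in the gcn5 deletion (0.0492, and 0.00591 with a common median). The 9 other mitochondrial chaperone genes, 7 of them tested, had 1 fall (PAM18) and medians of 0.09 and 0.27. The 13 other cytosolic partners, 12 tested, had medians of 0.15 and 0.42. Of the 3 genes of the nascent polypeptide-associated complex, 2 were tested and none was called as deposited or after quantile normalization, with medians of 0.19 and -0.04. The 5 other genes under heat shock factor control had 1 rise in the gcn5 deletion (HSP26) and medians of 0.06 and 0.10, with UBI4, the polyubiquitin gene, at 1637 and 1934 in the deletions against 1717 and 1892 in wild type. CUP1-1, of the same list, was read by a probe set that can detect several similar transcripts. It gave 5397 in the gcn5 deletion and 15345 in the ada1 deletion, against 10691 and 8594 in wild type. Between the deletions it was not called as deposited. After quantile normalization (log2 difference 1.04) and with a single variance prior it was called higher in the ada1 deletion. In the gcn5 deletion it was called lower only after quantile normalization (adjusted p = 0.0282, limma), with 0.747 as the highest value over the alternatives. At an unadjusted p under 0.05, with the values as deposited, the lists without a call had at most 1 gene in either strain (limma). The share of all tested genes under that threshold was not counted.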

How the data were processed

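The authors deposited 1 table of MAS5 intensity per probe set, per the submitters' processing notes; the MAS5 version, its scaling target, detection calls and array software were not given in the sources used here. Labelling used 200 ng of total RNA, per the labels. Of 5716 probe sets, 5498 had 1 gene symbol in the platform annotation, 0 several and 218 none; all 5498 matched the RefSeq table of assembly R64 by gene identifier, which updated 12 symbols. For the 47 genes with several probe sets, the brightest by mean log2 signal was used. The background level, 166, is the signal at the 20th percentile of all probe sets' mean log2 values.

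The log2 signals as deposited of all 4 arrays entered 1 fit of 3 groups in limma 3.58.1 (R 4.3.3; lmFit, eBayes with a trend on the mean), with 1 residual degree of freedom, from the wild-type pair. The prior degrees of freedom were infinite, so each gene took the trend's spread at its signal; after quantile normalization they were 7.85. P-values were adjusted over all tested genes. The number of arrays limits the precision.

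Named are the deleted genes, all chaperone genes called in any comparison, the 2 of each role with the largest difference to wild type, and called genes of the 6 lists. HSC82, SSE1, SSA1, SSA2, SSB1, SSB2, HSP60 and further genes were chosen for naming after their values were seen. The chaperone genes and lists were chosen with earlier results of these data known. Promoter motifs and protein identity, planned, were not analysed here.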

Additional observations from a re-analysis of the deposited data

Results flagged for a closer look

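The direct contrast of the deletion arrays in limma singled out 3 chaperone genes, each higher in the ada1 deletion. The log2 difference was 1.13 for HSP82 (2908 against 1326), 1.16 for CPR6 (5699.6 against 2549.7) and 1.60 for BTN2 (881 against 291). Over the alternatives the adjusted p ranged from 1.81e-05 to 0.104 for HSP82, from 0.000511 to 0.0919 for CPR6 and from 1.54e-10 to 0.101 for BTN2. The 3 genes were lower in the gcn5 deletion than on either wild-type array, which a choice of genes by this contrast favours. None of them was called lower there against wild type with the values as deposited. The log2 differences of wild type replicate 1 to replicate 2 were 0.12, 0.05 and -0.14 for HSP82, CPR6 and BTN2. Groups of at least 4 arrays, which a search for outlying arrays needs, do not exist here.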

How the results depend on the processing

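Of 7 alternatives with a test, quantile normalization called 10 chaperone genes higher in the ada1 deletion and a common median 6, against 3 as deposited. In the gcn5 deletion, with 0 as deposited, quantile normalization called 1 higher and 1 lower and the common median 2 and 1, while no filter, a filter at the 40th percentile and a single variance prior each called 1 higher. Between the deletions quantile normalization called 5 higher and raising dim signals to the background level 1, against 3. The other counts of chaperone genes stayed within 1.5 times, and no called chaperone gene changed sign. The filter at the 40th percentile left SSA3, SSA4, SSE2, XDJ1, HSP42, CUR1 and HSF1 untested.

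The median of the tested chaperone genes in the ada1 deletion (0.35) was 0.29 after quantile normalization and 0.34 to 0.41 without either wild-type array. In the gcn5 deletion (-0.061) it was 0.035 after quantile normalization, -0.28 with a common median, -0.025 without the filter, -0.12 with the stricter one and -0.030 to -0.0074 without either wild-type array. Between the deletions (0.35) it was 0.25, 0.55 and 0.41 after quantile normalization, with a common median and with the stricter filter. The cause was not tested. The common median moved the median of all tested genes in the gcn5 deletion from 0.15 to -0.06, and between the deletions from -0.11 to 0.09. Over all genes, raising dim signals called 82 higher in the ada1 deletion, 51 higher and 55 lower in the gcn5 deletion and 40 higher and 95 lower between them. With a single variance prior 56 were higher in the ada1 deletion, 56 higher and 67 lower in the gcn5 deletion and 52 higher between them, and without the filter 149 were higher in the gcn5 deletion.

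Without a wild-type array no residual degrees of freedom were left, so those values have no test. No paired analysis was possible because the labels number only the wild-type arrays. Detection calls were not used here.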
